A study of Homo sapiens with 6 samples.

Results

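The genes of 10 nuclear speckle proteins and regulators were followed in HEY ovarian cancer cells depleted of the splicing factor PQBP1, namely those of the 4 CLK kinases (CLK1, CLK2, CLK3 and CLK4), of the cyclins L (CCNL1 and CCNL2), and of the speckle proteins SON, SRRM1, SRRM2 and PNISR. They were taken by gene symbol from the deposited table as genes known for detained introns or for a role in nuclear speckles. All 10 were present among the 32679 genes of the table, and all 10 were among the 11413 genes with a mean of at least 1 FPKM that were tested. FPKM, fragments mapped to a gene scaled to the length of its transcript and to the total of the library, was used to compare levels between genes and samples. The sum of FPKM over all genes still differed between samples.

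The samples were 3 biological replicates with a control hairpin (shNC) and 3 with a hairpin against PQBP1 (shPQBP1), all labelled day 3. The paper's methods also allow RNA extraction sooner after induction than that. Its legend on exon inclusion and skipping in PQBP1-depleted HEY cells gives a doxycycline treatment shorter than 3 days. The hairpins were carried by stable, puromycin-selected lentiviral lines described as doxycycline-inducible. By the labels, doxycycline at 1 µg/ml was given to the shPQBP1 samples, while no dose is listed for the shNC samples. Whether the shNC samples also received it could not be settled. An effect of the drug therefore cannot be told apart from one of the hairpin. A single hairpin in a single cell line was profiled, and poly(A) RNA was sequenced.

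PQBP1, the targeted gene, had 7.18, 6.67 and 6.93 FPKM in the shNC samples and 1.68, 1.72 and 1.44 FPKM in the shPQBP1 samples. It fell by 2.04 on the log2 scale (SE 0.10, limma adjusted p = 0.00154), and the groups were well apart, as their labels say. In such bulk RNA a lower level in every cell and a loss in some of the cells cannot be told apart, here or for the genes below. The epithelial keratins KRT7, KRT8 and KRT18 and the mesenchymal filament gene VIM had at least 52.76 FPKM in all 6 samples, and the Müllerian factor PAX8 was between 12.33 and 24.08 FPKM. Of the 10 lineage markers examined, WT1, MUC16, ESR1 and CDH1 stayed under 1 FPKM everywhere. Of 8 markers of blood, endothelial, liver and glial cells, 6 were in the table and 5 of these stayed under 1 FPKM, while the endothelial cadherin gene CDH5 had 2.11 to 3.64 FPKM.

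The sample shNC 1 stood apart from the others. Its correlation with the other samples across all tested genes was 0.926 to 0.955, and its deviation from the shNC mean followed the GC content of the transcripts (Spearman's rho 0.613 across 11385 genes). The deviation of shPQBP1 2 from its own group followed GC content in the same direction (rho 0.403). Values across genes are given as descriptions, since genes are not replicates. Each result that rests on shNC 1 or shPQBP1 2 is therefore also given without that sample.

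CLK kinases are dual-specificity kinases that phosphorylate serine- and arginine-rich splicing factors (SR proteins) and thereby release them from speckles, the nuclear bodies in which splicing factors are stored. Their own pre-mRNAs are a known control point: introns on either side of exon 4 can stay in polyadenylated RNA that is held in the nucleus (detained introns), and exon 4 can be skipped, which gives a truncated protein without kinase activity. Cyclins L associate with the CDK11 kinases and localize to speckles, and their genes also make intron-retaining transcripts. SON and SRRM2 form the core of the speckle, SRRM1 is a coactivator of splicing that works with SRRM2, and PNISR is a serine- and arginine-rich protein that binds pinin.

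Exon 4 of each CLK gene is shown because it is the site of this regulation and because it shows how close CLK1 and CLK4 are. Each sequence runs 5′ to 3′ on the strand of the gene in hg38, with the exon in capitals and the 20 intron bases before it and the 10 after it in lower case.
CLK1: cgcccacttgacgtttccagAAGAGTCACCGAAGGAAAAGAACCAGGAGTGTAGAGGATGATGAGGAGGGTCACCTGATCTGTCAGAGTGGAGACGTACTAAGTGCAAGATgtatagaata
CLK2: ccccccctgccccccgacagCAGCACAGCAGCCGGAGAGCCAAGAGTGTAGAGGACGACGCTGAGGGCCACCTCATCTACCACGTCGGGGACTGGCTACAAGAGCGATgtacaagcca
CLK3: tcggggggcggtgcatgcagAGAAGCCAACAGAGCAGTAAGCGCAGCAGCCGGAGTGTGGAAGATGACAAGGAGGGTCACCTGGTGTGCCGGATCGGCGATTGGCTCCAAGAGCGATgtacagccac
CLK4: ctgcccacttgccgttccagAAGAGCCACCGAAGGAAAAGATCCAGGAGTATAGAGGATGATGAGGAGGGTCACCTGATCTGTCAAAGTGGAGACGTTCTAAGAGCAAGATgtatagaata

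The exon lies at chr2:200860125-200860215 in CLK1 (minus strand, 91 bp), at chr1:155268708-155268795 in CLK2 (minus strand, 88 bp), at chr15:74622120-74622216 in CLK3 (plus strand, 97 bp) and at chr5:178617344-178617434 in CLK4 (minus strand, 91 bp). It is wholly coding in the canonical transcript of every CLK gene, and its length leaves a remainder of 1 on division by 3 in all 4 genes, so that skipping it shifts the reading frame. Of the transcripts assigned to each gene in the table, 1 of CLK1, 1 of CLK2, 4 of CLK3 and 2 of CLK4 skip it in GENCODE release 44. The exons of CLK1 and CLK4 are identical at 85 of 91 positions (93.4%). The 3rd and 4th introns, which flank the exon, are each kept whole in annotated retained-intron transcripts of CLK1 (1022 and 378 bp), CLK4 (1121 and 395 bp) and CLK3 (1894 and 277 bp). In CLK2 only the 4th intron (348 bp) is kept, in a transcript with no defined coding sequence.

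Retained-intron transcripts are a large share of the annotation of most of these genes. They make up 16 of 26 listed transcripts of CCNL1, 9 of 20 of CCNL2, 8 of 15 of CLK1, 6 of 12 of CLK4, 8 of 25 of CLK3, 12 of 27 of SRRM2, 5 of 18 each of SON and SRRM1, and 4 of 11 of PNISR. CLK2 has none of this class among 7. The class was known only for transcripts found in GENCODE release 44, which were 22 of the 27 of SRRM2, 19 of the 20 of CCNL2 and 14 of the 15 of CLK1. In CCNL2 and SON, 0 of 10 and 0 of 11 introns of the canonical transcript are kept whole in another listed transcript of that release. The deposited FPKM is 1 value per gene, and how its transcripts were combined is not stated. The values below therefore cannot separate spliced from intron-keeping RNA, and exon 4 inclusion was not analysed here.

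**Figure D1:**
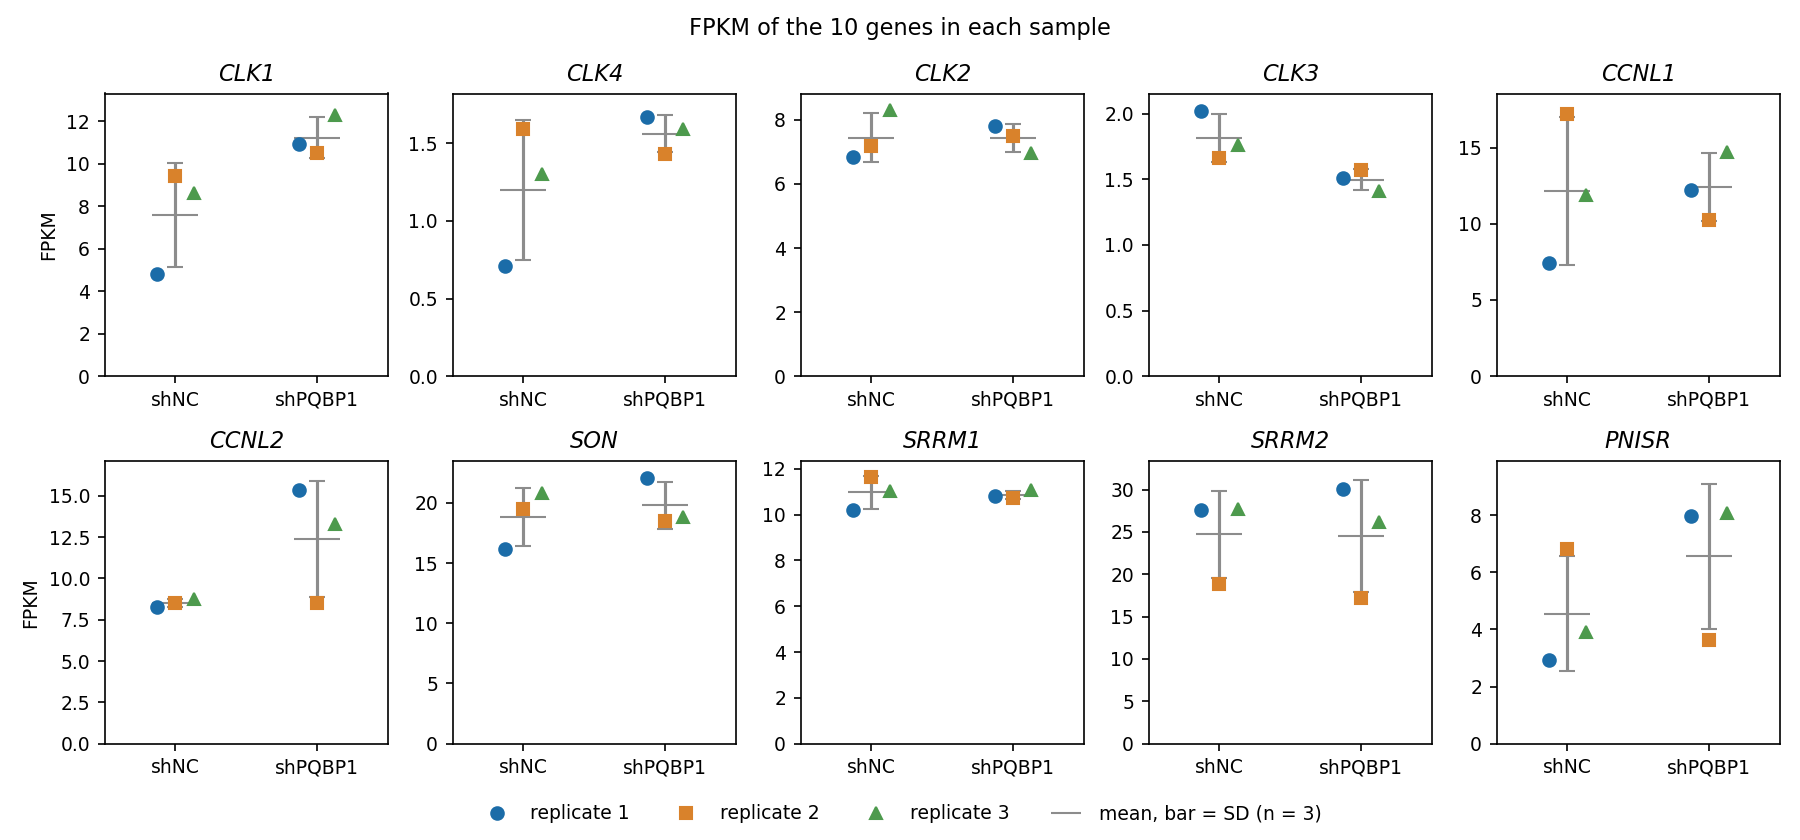
FPKM of the 10 genes (vertical axes, each starting at 0) in the 3 shNC and the 3 shPQBP1 samples. Coloured points are samples, and grey bars are the group mean and SD (n = 3). CLK1 and CLK3 are the genes whose groups do not overlap, and the shNC 1 point is the lowest of its group in 8 of 10 genes.

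No member passed the test for a difference between shPQBP1 and shNC cells. At an adjusted p under 0.05 limma called 0 of the 10, against 2.91% of all tested genes (332 genes). At an unadjusted p under 0.05 it also called 0 of the 10, against 23.6% of all tested genes (2689 genes), and 0 passed a fold change of 2 with that p, against 1.52%. The groups did not overlap in 2 of the 10 (CLK1 higher and CLK3 lower in shPQBP1), against 34.4% of all tested genes, of which 17.3% were higher and 17.1% lower. The median log2 fold change of the 10 was 0.084, with 7 above and 3 below 0, against a median of 0.021 and 52.8% above 0 over all tested genes.

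CLK1 had the largest log2 fold change of the 10 with all 6 samples, though not in every alternative. CCNL2 was higher without shNC 1 and with GC content removed. PNISR was higher without shNC 2 (0.85 against 0.79). Without shPQBP1 2 both PNISR (0.89) and CCNL2 (0.74) were higher than CLK1 (0.66). The FPKM of CLK1 was 4.81, 9.41 and 8.61 in the shNC samples and 10.92, 10.5 and 12.31 in the shPQBP1 samples. All 3 shPQBP1 values lay above all 3 shNC values, and shNC 1 was far below the other shNC samples. The log2 fold change was 0.61 (SE 0.25, 95% interval -0.01 to 1.23, adjusted p = 0.215), and the exact permutation p was 0.1, the smallest that 3 against 3 samples allow. Without shNC 1 it was 0.31 (adjusted p = 0.134), and the adjusted p ranged from 0.134 to 0.426 over the alternatives. CLK1 therefore kept its direction in every alternative run, while the size of its difference moved by over 1.5 times with 1 control sample.

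CLK4, the paralog with the nearly identical exon 4, was expressed at a lower level. It had 0.71, 1.59 and 1.3 FPKM in the shNC samples and 1.67, 1.43 and 1.59 FPKM in the shPQBP1 samples. Apart from shNC 1, the values of the groups lay side by side. Its log2 fold change was 0.42 (SE 0.28, 95% interval -0.27 to 1.11, adjusted p = 0.387), 0.11 without shNC 1 and 0.64 without shNC 2.

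CLK2 showed no detectable difference. Its values were 6.84, 7.18 and 8.32 FPKM in shNC and 7.81, 7.51 and 6.97 FPKM in shPQBP1 samples, with full overlap. Between the groups it differed by 0.00 on the log2 scale (SE 0.10, adjusted p = 0.999), and the 95% interval of the fold reached from 0.841 to 1.19, so that larger differences lay outside it.

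CLK3 had 2.02, 1.66 and 1.76 FPKM in shNC and 1.51, 1.57 and 1.41 FPKM in shPQBP1 samples. The shPQBP1 values were all below the shNC values, and the closest pair was 1.57 against 1.66 FPKM. This gave a log2 fold change of -0.26 (SE 0.13, 95% interval -0.56 to 0.05, adjusted p = 0.267), and -0.18 without shNC 1, the highest shNC sample for this gene. The end of CLK3 shares 31.7% of the gene's span with EDC3 on the opposite strand, and whether the counting used strand is not stated.

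CCNL1 varied more among the shNC samples than between the groups. It had 7.44, 17.17 and 11.89 FPKM in shNC and 12.23, 10.24 and 14.72 FPKM in shPQBP1 samples, so that the highest shNC value was 2.31 times the lowest. This left a log2 fold change of 0.09 (SE 0.31, 95% interval -0.66 to 0.84, adjusted p = 0.868), and -0.22 without shNC 1.

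CCNL2 showed the reverse arrangement, with shNC samples close to each other and shPQBP1 samples spread out. It had 8.27, 8.54 and 8.78 FPKM in shNC and 15.37, 8.49 and 13.29 FPKM in shPQBP1 samples. The sample shPQBP1 2 lay within the shNC range, and the other 2 shPQBP1 samples were above it. The log2 fold change was 0.49 (SE 0.22, 95% interval -0.03 to 1.01, adjusted p = 0.23). Without shPQBP1 2 it was 0.74 (adjusted p = 0.0841), the smallest adjusted p of the gene, and without shPQBP1 1 it was 0.31 (adjusted p = 0.478, the largest). Unlike CLK1, CCNL2 depended little on shNC 1, without which its log2 fold change was 0.47.

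SON, a scaffold of the speckle core, was one of the 2 most abundant members. It had 16.19, 19.46 and 20.80 FPKM in shNC and 22.06, 18.46 and 18.84 FPKM in shPQBP1 samples. The groups overlapped, with a log2 fold change of 0.08 (SE 0.12, 95% interval -0.23 to 0.38, adjusted p = 0.722). DONSON on the opposite strand covers 52.1% of the SON span.

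SRRM2, the other core protein and the most abundant member, split by sample rather than by group. It had 27.64, 18.82 and 27.70 FPKM in shNC and 30.09, 17.23 and 26.20 FPKM in shPQBP1 samples. In each group 1 sample (shNC 2 and shPQBP1 2) was at most 18.82 FPKM and the other 2 were at least 26.20 FPKM. The log2 fold change was -0.03 (SE 0.25, 95% interval -0.64 to 0.58, adjusted p = 0.951), and 0.21 without shPQBP1 2.

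SRRM1 had the smallest SE of the 10. It had 10.21, 11.63 and 11.05 FPKM in shNC and 10.81, 10.73 and 11.06 FPKM in shPQBP1 samples, with a coefficient of variation of 6.5% in shNC and 1.6% in shPQBP1. The log2 fold change was -0.01 (SE 0.08, adjusted p = 0.942), and the 95% interval of the fold was 0.868 to 1.14.

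PNISR had the largest SE. It had 2.94, 6.82 and 3.89 FPKM in shNC and 7.96, 3.63 and 8.08 FPKM in shPQBP1 samples, with a coefficient of variation of 44.4% and 38.7%. Here shPQBP1 2 lay among the lower shNC values. The log2 fold change was 0.52 (SE 0.42, 95% interval -0.49 to 1.53, adjusted p = 0.46), 0.25 without shNC 1, 0.85 without shNC 2, 0.34 without shPQBP1 1, 0.89 without shPQBP1 2 and 0.32 without shPQBP1 3.

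**Figure D2:**
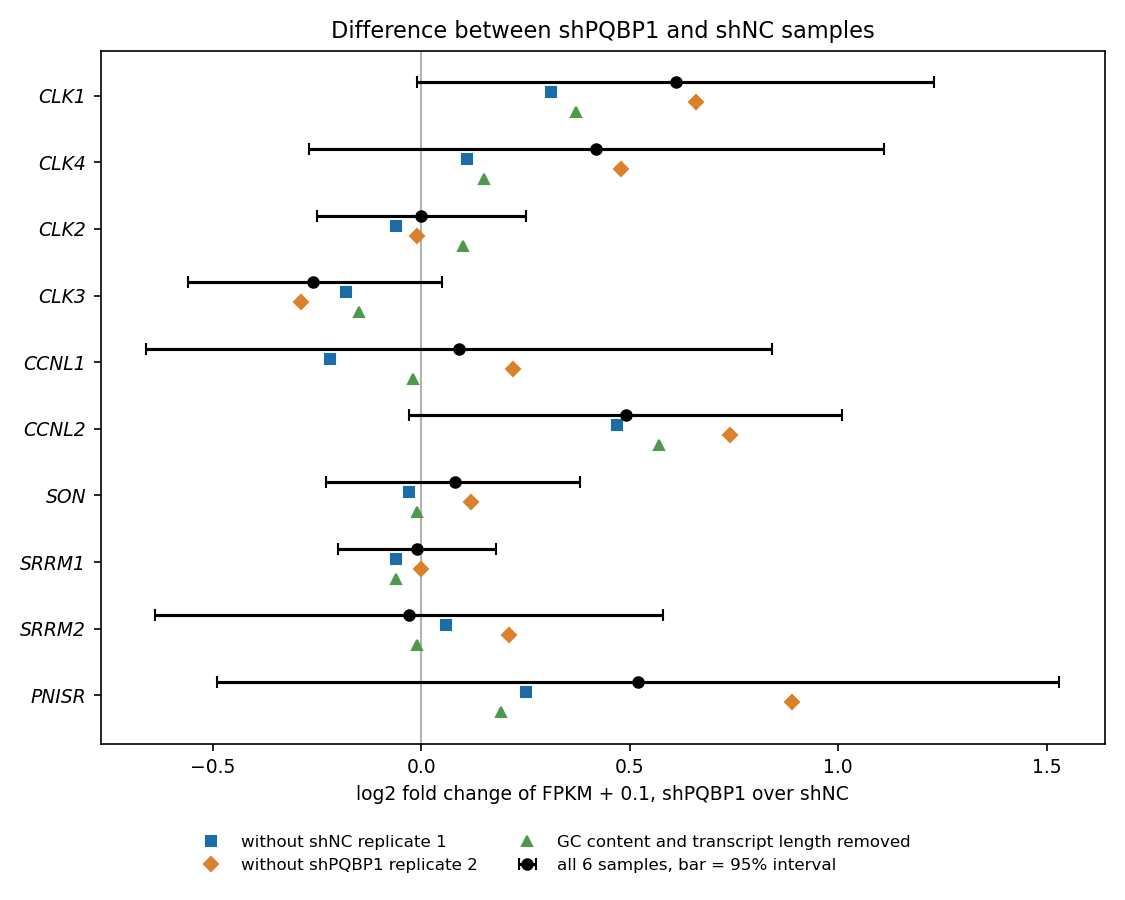
Log2 fold change of FPKM + 0.1, shPQBP1 over shNC (horizontal axis), for each of the 10 genes. Black points with bars are the fit of all 6 samples with its 95% interval, and coloured points are the fit without shNC 1, without shPQBP1 2, or with GC content and transcript length removed. Every black bar includes 0, and the points for CLK1, CLK4 and PNISR move towards 0 without shNC 1.

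The order of the levels was broadly shared by the groups. In shNC samples the mean FPKM ran from SRRM2 (24.7 ± 5.11, SD, n = 3) through SON (18.8 ± 2.37), CCNL1 (12.2 ± 4.87) and SRRM1 (10.21 to 11.63) to CCNL2 (8.53 ± 0.255), CLK1 (7.61 ± 2.46), CLK2 (7.45 ± 0.775), PNISR (4.55 ± 2.02), CLK3 (1.81 ± 0.186) and CLK4 (1.2 ± 0.448). Neighbours in this order overlapped, apart from SRRM1 and CCNL2, CLK2 and PNISR, PNISR and CLK3, and CLK3 and CLK4, whose values did not. In shPQBP1 samples SRRM2 (24.5 ± 6.6) and SON (19.8 ± 1.98) again came first. CCNL2 (12.4 ± 3.53), CCNL1 (12.4 ± 2.24), CLK1 (11.2 ± 0.947) and SRRM1 (10.9 ± 0.172) followed with overlapping values, then CLK2 (7.43 ± 0.426) and PNISR (6.56 ± 2.54), and CLK4 (1.56 ± 0.122) and CLK3 (1.5 ± 0.0808) came last and overlapped. The summed FPKM of the 10 genes was 87.1, 102.3 and 104.1 in shNC and 120.4, 89.8 and 114.5 in shPQBP1 samples, so the sums of the groups overlapped through shPQBP1 2.

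The error of the test differed widely among the 10 genes. The SE of their log2 fold changes ran from 0.08 (SRRM1) to 0.42 (PNISR), with a median of 0.233 against 0.138 over all tested genes, and 20.2% of all tested genes had an SE above the members' median. The SEs of SRRM1, CLK2 (0.10), SON (0.12) and CLK3 (0.13) were below the median of all tested genes. In most of the 10 genes shNC 1 and shPQBP1 2 were both the lowest of their group. The sample shNC 1 was the lowest of its group in 8 of 10 members, against 40.9% of all tested genes, and shPQBP1 2 was the lowest of its group in 8 of 10, against 35.3%.

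The standing of shNC 1 went with the GC content of the transcript. In the 6 members with a GC content under 50% (36.9% to 46.9%), shNC 1 was the lowest shNC sample in 6 of 6, at -0.62 to -0.10 from the group mean on the log2 scale. In the 4 with a GC content over 50% (55.3% to 56.0%) it was the lowest in 2 of 4, at -0.12 to 0.18. The sample shPQBP1 2 divided in the same way: it was the lowest shPQBP1 sample in 6 of 6 members under 50% GC and in 2 of 4 over 50%, CCNL2 and SRRM2.

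**Figure D3:**
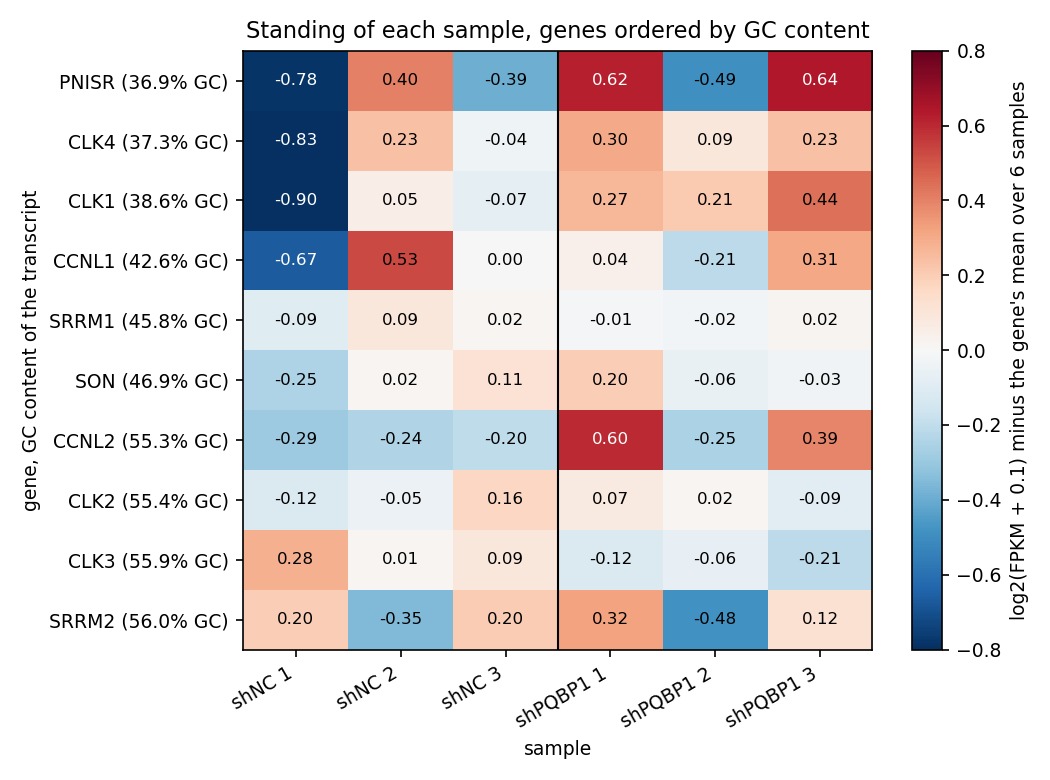
Deviation of each sample from the gene's mean over the 6 samples, in log2(FPKM + 0.1), for the 10 genes ordered from low to high GC content of the transcript (blue below, red above the mean). The shNC 1 column is darkest blue for PNISR, CLK4, CLK1 and CCNL1, the 4 genes with the lowest GC content, and light red for CLK3 and SRRM2, the 2 with the highest.

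The difference between the groups followed GC content across all tested genes as well (Spearman's rho -0.459 across 11385 genes, and -0.236 without shNC 1). When the tested genes were cut into 10 bins of equal size by GC content, the median log2 fold change was 0.328 in the lowest bin (median GC content 36.8%) and -0.173 in the highest (63.5%). The log2 fold changes of CLK1 (38.6% GC), CLK4 (37.3%) and PNISR (36.9%) are to be read beside the medians of 0.328 and 0.235 in the 2 lowest bins. CCNL2 (55.3% GC) had a log2 fold change of 0.49 where the median of its bin was -0.105. With GC content and transcript length removed from each sample, the log2 fold change was 0.37 for CLK1 (adjusted p = 0.175) and 0.57 for CCNL2 (adjusted p = 0.191), and neither was called. The same correction took CLK4 from 0.42 to 0.15, PNISR from 0.52 to 0.19 and CLK3 from -0.26 to -0.15. With that correction and without shNC 1, an alternative chosen after seeing the data, the value was 0.21 for CLK1, 0.49 for CCNL2, 0.00155 for CLK4, 0.14 for PNISR and -0.14 for CLK3. The part of GC content in these differences was not tested further.

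**Figure D4:**
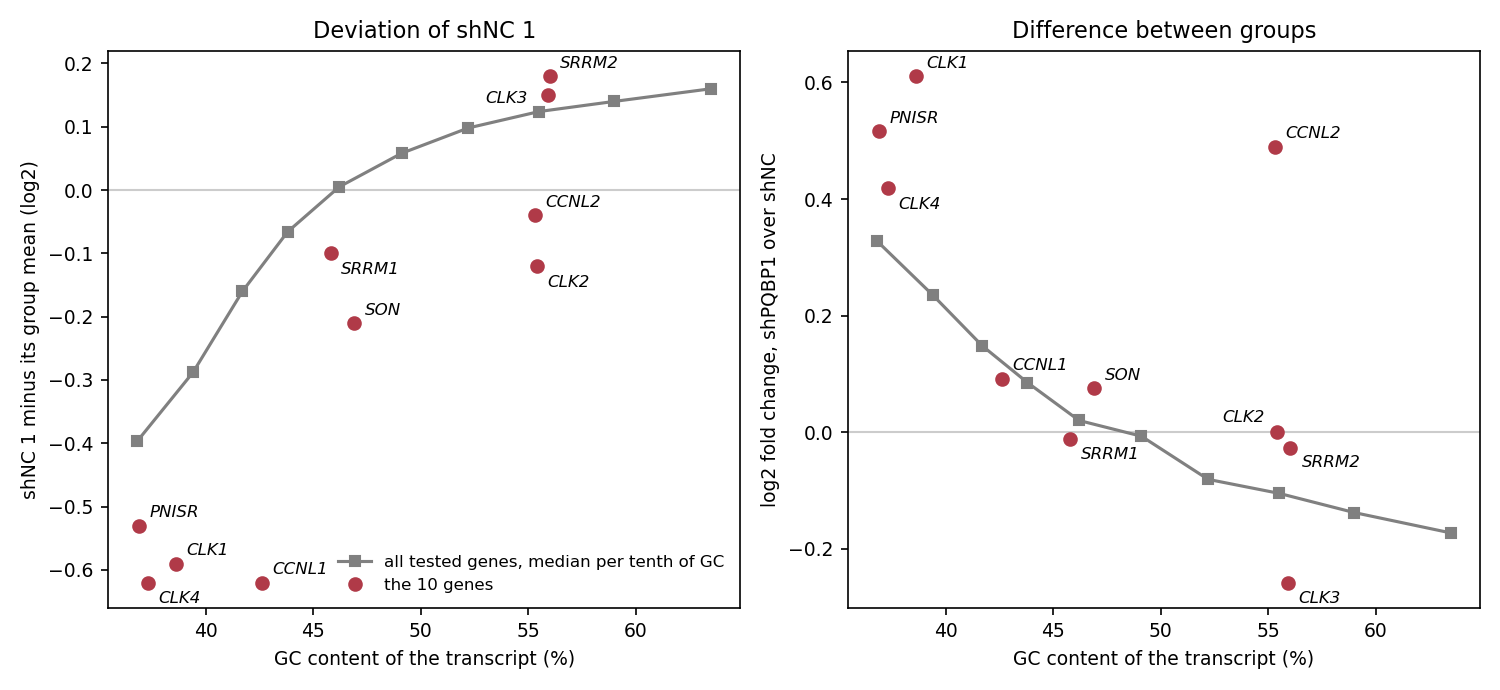
Left, deviation of shNC 1 from the mean of its group (log2), and right, log2 fold change of shPQBP1 over shNC, both against the GC content of the transcript in percent. Grey squares are medians of all tested genes in 10 bins of GC content, and red points are the 10 genes. The grey line climbs on the left and descends on the right, with CLK1, CLK4, PNISR and CCNL1 in the lower left corner of the left panel and CCNL2 far above the line on the right.

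Ratios of 2 members within a sample were compared to see whether related genes moved apart, since a shift of a whole sample cancels in them. The 6 ratios were compared with two-sided exact permutation tests, whose smallest p with 3 against 3 samples is 0.1, so none could reach 0.05. The ratio of CLK1 to CLK2 was 0.703, 1.31 and 1.03 in shNC and 1.40, 1.40 and 1.77 in shPQBP1 samples. The groups did not overlap, and the mean log2 ratio was 0.61 higher in shPQBP1 (exact p = 0.1, adjusted over the 6 ratios p = 0.2). CLK1 and CLK2 differ strongly in GC content (38.6% and 55.4%), and without shNC 1 the difference was 0.37, with ratios from 1.03 to 1.31 against 1.40 to 1.77.

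The ratio of CLK1 to CLK4, whose GC contents are alike, was steadier. It was 6.77, 5.92 and 6.62 in shNC and 6.54, 7.34 and 7.74 in shPQBP1 samples, and these ratios of FPKM overlapped. The mean log2 ratio, computed on FPKM + 0.1, was 0.19 higher in shPQBP1 (exact p = 0.1, adjusted p = 0.2), with SDs of 0.08 and 0.12. Computed on FPKM + 0.01 it was 0.17 higher, with an exact p of 0.3. Both genes had their lowest value in shNC 1 (4.81 and 0.71 FPKM), where their ratio was within the range of the other samples.

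The ratio of CLK2 to CLK3 was 3.39, 4.33 and 4.73 in shNC and 5.17, 4.78 and 4.94 in shPQBP1 samples, without overlap, and the mean log2 ratio was 0.26 higher (exact p = 0.1, adjusted p = 0.2). The closest values, 4.73 and 4.78, were nearly equal, and without shNC 1 the difference was 0.12. The ratio of CCNL2 to CCNL1 was 1.11, 0.497 and 0.738 in shNC and 1.26, 0.829 and 0.903 in shPQBP1 samples, and overlapped (exact p = 0.4, adjusted p = 0.6). Its mean log2 ratio was 0.40 higher in shPQBP1, 0.69 without shNC 1, 0.11 without shNC 2 and 0.22 without shPQBP1 1.

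Among the speckle proteins, the ratio of SRRM2 to SRRM1 was 2.71, 1.62 and 2.51 in shNC and 2.78, 1.61 and 2.37 in shPQBP1 samples. The ratios of the groups differed by -0.02 on the log2 scale (exact p = 0.9, adjusted p = 0.9), while shNC 2 and shPQBP1 2 were low in both groups. The ratio of SON to SRRM2 mirrored this, with 0.586, 1.03 and 0.751 in shNC and 0.733, 1.07 and 0.719 in shPQBP1 samples (exact p = 0.8, adjusted p = 0.9).

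**Figure D5:**
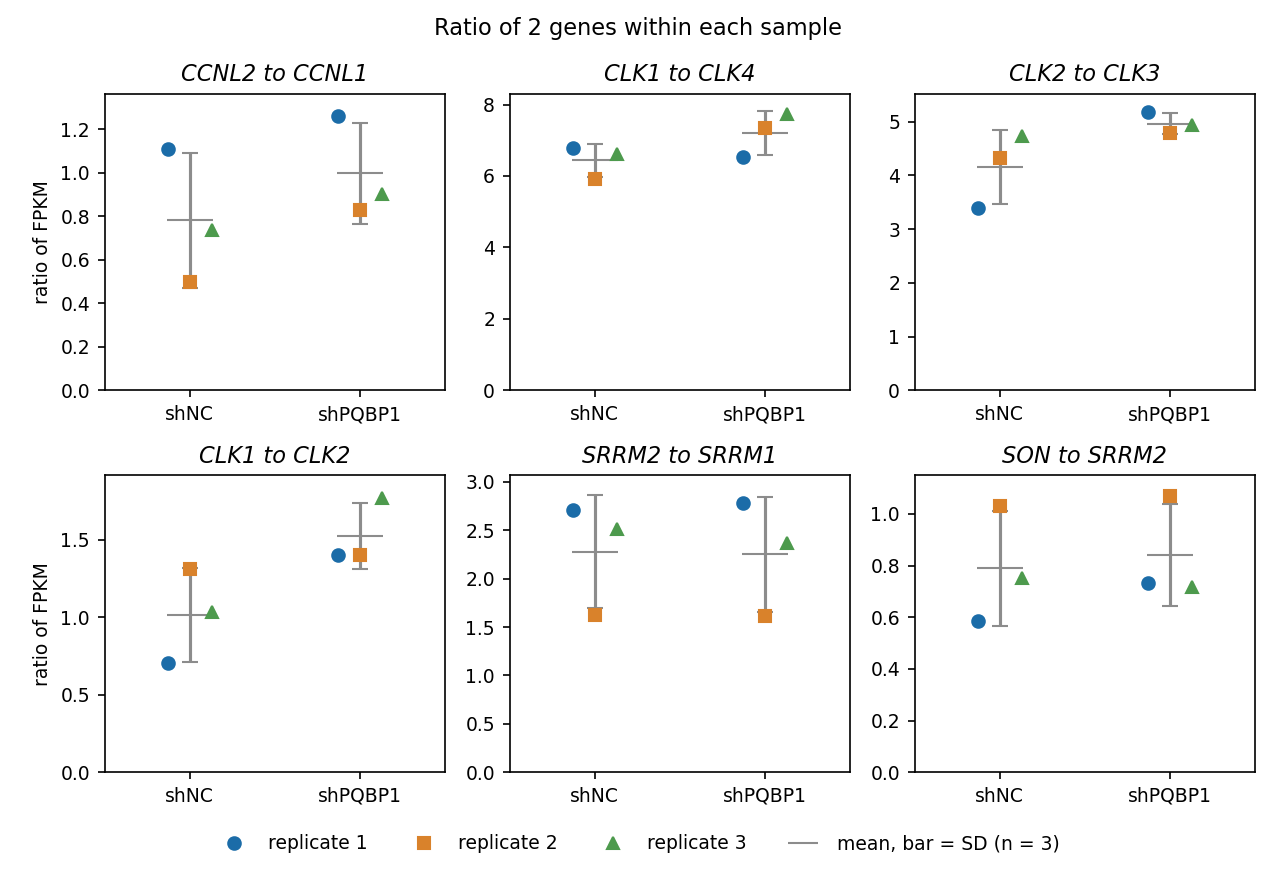
Ratio of the FPKM of 2 genes within each sample (vertical axes, each starting at 0), for 6 pairs, in shNC and shPQBP1 samples. Coloured points are samples, and grey bars are the mean and SD of the ratios (n = 3). The shPQBP1 points lie above the shNC points for CLK2 to CLK3 and CLK1 to CLK2, and those of the other 4 ratios overlap.

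The genes that work with the members were examined in 4 lists, of which 72 of 75 genes were tested. Of 9 tested kinases related to CLKs (the SRPK, DYRK and HIPK families and PRPF4B), 0 passed at the adjusted threshold, and the median log2 fold change was 0.152. At an unadjusted p under 0.05, 1 of the 9 was higher and 0 were lower in shPQBP1, against 23.6% of all tested genes. The higher gene was DYRK3, a kinase that dissolves speckles and other condensates (8.74 to 10.28 FPKM in shNC and 10.89 to 11.72 in shPQBP1, adjusted p = 0.151). SRPK1, the cytoplasmic kinase of SR proteins, had a log2 fold change of 0.14 (adjusted p = 0.271). DYRK1A and DYRK1B were below the limit of 1 FPKM and were not tested.

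Of 9 CDKs, cyclins and partners of transcription and splicing, 0 were called (median log2 fold change -0.033). At an unadjusted p under 0.05, 1 was higher and 3 were lower in shPQBP1, 4 of 9 against 23.6% of all tested genes. CCNT2, a cyclin of the elongation factor P-TEFb, was the higher gene, with 1.63, 2.14 and 2.24 FPKM in shNC and 3.37, 2.55 and 2.78 FPKM in shPQBP1 samples (adjusted p = 0.143). CDK11B, the kinase partner of cyclins L, was lower, with 24.13, 23.56 and 22.91 FPKM in shNC and 20.20, 18.79 and 19.57 FPKM in shPQBP1 samples (adjusted p = 0.0978). SAP30BP, a splicing factor, had a log2 fold change of -0.42 (adjusted p = 0.104), and CCNK, the cyclin of CDK12 and CDK13, one of -0.29 (adjusted p = 0.151). CDK11A and CDK11B are near-identical copies, so how reads were split between them is uncertain, and CDK11A had a log2 fold change of -0.31 (adjusted p = 0.326).

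Of 30 other speckle proteins, 0 were called, and at an unadjusted p under 0.05, 0 were higher and 6 were lower in shPQBP1 (median log2 fold change -0.005). The 6 of 30 are a share below the 23.6% of all tested genes at that p. The 6 included the export adaptor ALYREF, with 86.38, 65.48 and 68.51 FPKM in shNC and 49.99, 49.84 and 43.84 FPKM in shPQBP1 samples (log2 fold change -0.61, adjusted p = 0.0597). They also included the helicase DDX39B (-0.54, adjusted p = 0.123) and the splicing coactivator THRAP3 (-0.19, adjusted p = 0.14). ALYREF was called without shNC 1. With GC content and transcript length removed, 7 of the 72 related genes were called, against 9.02% of all genes tested in that way, a like share, with MAT2A higher and ALYREF, DDX5, SAP30BP, SNRNP70, THRAP3 and TRA2B lower in shPQBP1.

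Of 24 tested genes with known detained introns, 1 was higher and 0 were lower at an adjusted p under 0.05 (median log2 fold change -0.005). Over all tested genes 2.91% were called. At an unadjusted p under 0.05, 1 was higher and 3 were lower, against 23.6% of all tested genes. The gene called at the adjusted threshold was MAT2A, which encodes the enzyme that makes S-adenosylmethionine and whose last intron is detained. MAT2A had 77.48, 83.68 and 77.97 FPKM in shNC and 102.89, 100.80 and 100.06 FPKM in shPQBP1 samples. It rose by 0.35 on the log2 scale (SE 0.06, adjusted p = 0.0487), and the groups were well apart. The adjusted p was just inside the threshold, and the count of 1 fell to 0 on leaving out shNC 2, shNC 3, shPQBP1 1, shPQBP1 2 or shPQBP1 3. MAT2A was also not called with median-of-ratios scaling, with quantile normalization (where ALYREF was the 1 related gene called), with every gene above 0 tested, without the mean-variance trend or with the replicate block. Over all 72 related genes 1 was called at an adjusted p under 0.05, against 2.91% of all tested genes. At an unadjusted p under 0.05 there were 3 higher and 12 lower, a share below the 23.6% of all tested genes. The sample shNC 1 was the lowest shNC sample in 47 of the 72 (65.3%, against 40.9% of all tested genes).

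The mean profile of the 10 members, as log2(FPKM + 0.1) minus each gene's shNC mean, was -0.25, 0.17 and 0.08 in shNC and 0.32, -0.03 and 0.28 in shPQBP1 samples. It thus held the low values of shNC 1 and shPQBP1 2 described above. The genes nearest to it, by the root mean square difference over the 6 samples, were TCAF1 (0.0482), URI1 (0.049), RNF111 (0.0492), TMEM184C (0.0493) and PPIL3 (0.0494). Their values in shNC 1 were -0.27 to -0.21 from the shNC mean, which follows from how they were chosen and adds nothing on that sample.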

How the data were processed

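Total RNA of 3 shNC and 3 shPQBP1 HEY samples was profiled by poly(A) RNA-seq on an Illumina instrument. Per the labels and the methods of the study, alignment to hg38 was done by the authors in HISAT2 (version 2.2.0) and sorting in SAMtools (version 1.9). The authors then assembled transcripts in StringTie (version 1.3.0), and the authors' own group comparison was made in edgeR. The authors deposited 1 table of FPKM per gene and sample, rounded to 2 decimals. The annotation release, the strand setting and the FPKM settings are not given in the sources used here. The table also holds the authors' fold changes, p-values and q-values, which were not used. Low values showed no steps of whole reads (step strength 0.157 to 0.183, where 1 would be perfect steps). The depth is therefore unknown, and no counting error is given.

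Genes with a mean of at least 1 FPKM were tested on log2(FPKM + 0.1), without further scaling, with limma (version 3.58.1, R version 4.3.3; trended eBayes, two-sided), adjusted by Benjamini-Hochberg over 11413 genes. The FPKM of all genes summed to 295000 to 318000 in the shNC samples and to 278000 to 287000 in the shPQBP1 samples. A fold change on this scale understates the change of low genes such as CLK4. Ratios were compared by exact permutation tests in scipy (version 1.17.1). GC content and length were removed per sample with natural splines (5 degrees of freedom each) for 11385 genes with a transcript in GENCODE release 44. The annotation used by the authors may be another one. The exon sequences were read from hg38. The fit was tested on simulated data with known changes.

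The members and the gene lists were chosen with earlier results of these data known; the rule names them by known function and sets no threshold on a measured value. The genes named are the 10 members, PQBP1, the lineage markers, related genes called at an adjusted p under 0.05, and the 5 genes nearest to the members' mean profile; the other related genes were named after their values were seen. Same-numbered samples were not taken as pairs. The limma p-values set each difference against the spread within the groups, moderated over all tested genes. The exact p-values rest on reassigning these samples to the groups. Neither covers other hairpins or cell lines. The alternatives were other scalings, filters and pseudocounts, no trend, a replicate block, each sample left out, and removal of GC content and length. Splicing of single introns and exons was not analysed here.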

Additional observations from a re-analysis of the deposited data

How the results depend on the processing

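The 10 members gave 0 calls at an adjusted p under 0.05 in every one of the 15 alternatives, 5 members being tested at a mean of at least 10 FPKM. Of 307 values recomputed, 256 were classed as unchanged, 26 as reversed in sign, 24 as moved and 1 as weaker. A reversed sign was counted even where the value lay within its error, as for SON at -0.01 (SE 0.09) with GC content and length removed. Small changes of a count were classed as unchanged, as for the 3 members without overlap when shNC 2 was left out. The log2 fold changes of CLK1, CLK3, CCNL2 and PNISR kept their sign in all alternatives run, and CLK4 came down to 0.00155 (adjusted p = 0.995) with GC content and length removed and without shNC 1. With GC content and transcript length removed, CCNL1 was -0.02 and SON -0.01, and with shNC 1 also left out (chosen after seeing the data) CCNL1 was -0.27, SON -0.06, SRRM2 0.09 and CLK2 -0.02. CLK2 was -0.02 with median-of-ratios scaling, -0.06 with quantile normalization and -0.000135 with a pseudocount of 1. Leaving out 1 sample at a time gave -0.22 to 0.38 for CCNL1, -0.06 to 0.08 for CLK2, -0.03 to 0.15 for SON, -0.06 to 0.03 for SRRM1 and -0.21 to 0.21 for SRRM2, and the log2 ratios ranged from -0.25 to 0.21 for SRRM2 to SRRM1 and from -0.09 to 0.32 for SON to SRRM2. The members' median ranged from 0.017 to 0.241, with 0.241 without shNC 2 and 0.213 without shPQBP1 2.

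At an unadjusted p under 0.05, 1 member (CLK1) passed with quantile normalization, with a pseudocount of 1 and with GC content and length removed. Without the mean-variance trend 1 member (CLK3) passed. On leaving out a sample the count ranged from 0 to 1 (CLK1 without shNC 1 or shNC 2, CCNL2 without shPQBP1 2). Of all 11413 tested genes, 2787, 2741 and 2663 passed with quantile normalization, a pseudocount of 1 and no trend. With GC content and length removed, 3170 of 11385 passed. Without shNC 1, shNC 2 or shPQBP1 2, 2827, 2940 and 2126 of the 11413 passed. The number of members whose groups do not overlap was 0 at a mean of at least 10 FPKM, where CLK1 and CLK3 were not tested. It ranged from 2 to 4 on leaving out a sample, with CLK4 added without shNC 2 and CCNL2 and PNISR added without shPQBP1 2. The share of all genes without overlap was not computed in these runs. Groups separate more easily with a sample left out, so the 34.4% found with all 6 samples cannot be set beside these counts. Of the related genes, 1 was called with quantile normalization (ALYREF in place of MAT2A), against 3.65% of all genes tested in that way. With median-of-ratios scaling, with every gene above 0 or without the trend 0 were called, against 2.74%, 0.619% and 3.35%. At a mean of at least 10 FPKM 2 were called, against 5.76%, and 7 with GC content and length removed, against 9.02%. Leaving out a sample gave 0 to 2 (2 without shNC 1, against 4.07%). The cause of these changes was not tested.

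Same-numbered samples did not deviate together (correlations -0.19, -0.14 and -0.01), and the labels give no batch that they share. All 6 samples are labelled day 3. With the replicate block, 0 related genes were called, PQBP1 had a log2 fold change of -2.04 with an adjusted p of 0.0686, and 1 member (CLK1) had an unadjusted p under 0.05. The depth of the libraries is unknown, and 3 samples a group leave intervals as wide as -0.49 to 1.53 for PNISR.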
